A study of Mus musculus with 10 samples.

Results

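L-fucose (L-fuc), a dietary sugar given in the drinking water, was compared with control water at day 7 of treatment in SW1 tumors of mice, gene by gene and separately in immune and in tumor droplets. In the 10x system the droplet is marked by a barcode and the single RNA molecule by a further tag, the unique molecular identifier (UMI), so that UMIs count molecules. Barcodes with at least 500 genes and at most 10% mitochondrial UMIs were kept. Immune barcodes had at least 1 UMI of Ptprc, which encodes the leukocyte surface protein CD45, and 0 of Sox10, a transcription factor of the neural crest lineage. Tumor barcodes had at least 1 UMI of Sox10 and 0 of Ptprc. These gates held 18169 of the 36029 barcodes deposited for day 7, and of 41936 over the 5 RNA libraries of the series. Of these, 2900 immune and 8996 tumor barcodes came from control, and 3287 immune and 2986 tumor barcodes from L-fuc.

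SW1 is a melanoma cell line of C3H mice, and the cells were placed under the skin of the right flank of female C3H/HeJ mice aged 4 to 6 weeks. After 10 days of tumor growth, according to the labels, the mice drank either control water or water with 100 mM L-fuc, without restriction. The labels' extraction protocol gives the dose as 100 nM instead. Both groups carried the same tumor, and both libraries came from cells that the labels describe as sorted for CD45. Each group is 1 library, with no mark of the mouse. The protocols give 5 or 6 mice per arm, and the number of mice in each library is not clear from them. There was no replicate on either side, so no test was possible and no difference below has a replicate check. Intervals are exact 95% Poisson (UMI sums and their ratios) or binomial (shares) intervals, and they cover counting error only.

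Of the barcodes that passed the filters, 16.2% were immune in control and 36.4% in L-fuc. Tumor barcodes made up 50.3% and 33.1%, in the same order, and the remaining barcodes had UMIs of both genes or of neither. The labels call both libraries sorted for CD45, yet tumor barcodes outnumbered immune ones in control. These shares therefore do not measure the make-up of the tumors. The part of sorting, of depth and of the gates in them was not tested. Immune barcodes held a median of 2521.5 UMIs in control and 4280 in L-fuc, and tumor barcodes 7411.5 and 13921.5. The libraries shared 433 barcode sequences, which is 2.09% of the control and 2.83% of the L-fuc barcodes. The tumor gate fitted its label in part. It expressed the Schwann and melanocyte lineage list at a summed 1316 counts per 1000000 UMIs (CPM) in control and 1793 in L-fuc, led by Apod, but the pigment enzyme Tyr was at 0 in both and the pigment cell genes Dct and Pmel were below 1 CPM. A T cell receptor contig was attached to 18.8% of the control (17.4% to 20.3%) and 26.9% of the L-fuc immune barcodes (25.4% to 28.4%), against 0.678% and 0.268% of the tumor barcodes. The gates lost such barcodes unequally. Of 949 control and 1084 L-fuc barcodes with a contig, 214 and 102 had UMIs of both Ptprc and Sox10 and were in neither gate.

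Tumor cells respond to interferon-gamma, a cytokine that T cells and NK cells release, by inducing guanylate-binding proteins, immunity-related GTPases, the immunoproteasome and, through the transactivator Ciita, MHC class II molecules. NK cells and cytotoxic T cells kill with granzymes and perforin. Mast cells and basophils store proteases and histamine. Droplets also take up RNA that is free in the cell suspension, so that a gene can be counted in a barcode whose cell does not express it.

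For each gene, UMIs were summed over the barcodes of a gate, scaled to CPM of that gate's sum, and compared as a log2 ratio of L-fuc over control with 1 CPM added. A gene was counted as higher or lower at a log2 ratio of at least 1 in size, which is 2-fold. Among 12370 genes with at least 50 UMIs in the immune barcodes, 262 were higher (2.12%) and 1029 lower (8.32%), with a median log2 ratio of -0.15 over all of them. Among 13208 genes in the tumor barcodes, 79 were higher (0.598%) and 98 lower (0.742%), with a median of -0.04. Immunoglobulin genes made up 61 of the 262, 17 of the 1029, 8 of the 79 and 26 of the 98. The gates are thus described apart, since few genes moved past 2-fold in both.

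Over the 11438 genes measured in both gates, 19 were higher (0.166%) and 19 lower (0.166%) in both. Higher in immune barcodes and under 0.5 in size in tumor barcodes were 56 genes (0.490%), and lower 915 (8.0%). The reverse, a difference in tumor barcodes with less than 0.5 in immune barcodes, was seen for 32 higher (0.280%) and 48 lower genes (0.420%). By far the biggest of these sets was thus the one lower in immune barcodes alone. It was read against an independent library, the pretreatment library of day 0, in which a gene was called tumor-enriched or immune-enriched when its level differed at least 8-fold between the gates.

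**Figure D1:**
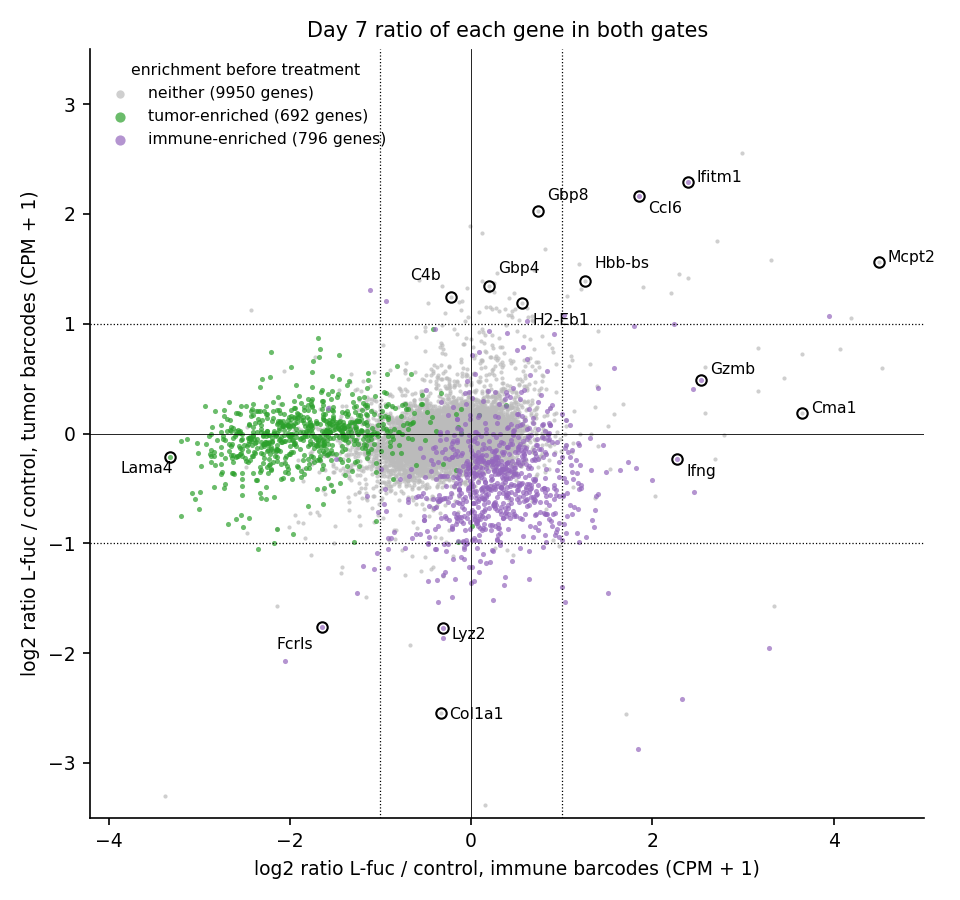
Log2 ratio of L-fuc over control at day 7 in immune barcodes (x axis) and tumor barcodes (y axis) for 11426 genes, coloured by their enrichment in the pretreatment library of day 0; 12 genes lie outside the axes, of which 11 are immunoglobulin genes. Tumor-enriched genes lie to the left at a ratio near 0 in tumor barcodes, hemoglobin genes at the upper right, and granzyme and mast cell genes to the right.

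Most of the genes lower in immune barcodes were tumor-enriched at day 0. Of 692 genes that were tumor-enriched at day 0 and passed the UMI minimum in immune barcodes of day 7, 624 (90.2%) were lower in L-fuc. Of these 692 genes 0 were higher, and their median log2 ratio was -1.82. The minimum was applied to the sum of both libraries, so a gene could pass it through its control UMIs alone. The part of this filter in the 90.2% and in the median was not tested. Of 1039 immune-enriched genes that passed the same minimum, 19 (1.83%) were lower and 99 (9.53%) were higher, with a median of 0.26. Over all genes in the immune gate 8.32% were lower and 2.12% higher. CPM are shares of the gate's sum, so a different amount of tumor RNA in it also moves the CPM of immune genes. Its part in the 0.26 and in the other ratios of the immune gate was not tested. In the tumor barcodes 776 tumor-enriched genes passed the minimum, with a median of 0.00.

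Lama4, a laminin chain of basement membranes, had 89.1 CPM in control immune barcodes and 8.01 in L-fuc, an 11.1-fold lower level. In tumor barcodes it had 269 and 232 CPM. The difference of more than 2-fold was therefore in the immune gate alone. Sema3b, a secreted semaphorin, went from 51.9 CPM in control to 5.03 in L-fuc in immune barcodes, with 295 and 285 in tumor barcodes. Ncam1, a neural adhesion molecule, had 62.4 and 7.30 CPM in immune barcodes and 254 and 302 in tumor barcodes. Sparc, a secreted matrix protein, had 749 and 110 CPM in immune barcodes. Over all genes in the immune gate 8.32% were lower. Of the Schwann and melanocyte list 6 of 7 measured members were lower in immune barcodes, with a median of -2.51. Of the matrix list 11 of 15 were, with a median of -1.69, against -0.15 over all genes. The matrix median turned to 0.41 among immune barcodes with at least 5 C1q UMIs and was -4.56 among those with no C1q UMI.

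The same holds for a set chosen without the libraries of day 7. At day 0, 68 genes had at least 100 CPM in tumor barcodes and at most 0.5% of that level in immune barcodes. Their level in immune barcodes, as a share of their level in tumor barcodes of the same library, had a median of 0.172% at day 0, 23.5% in control day 7 and 3.53% in L-fuc day 7. At day 21 it was 0.415% in control and 0.944% in L-fuc. The day 0 value is low by the choice of the genes, so only the day 21 libraries are a free comparison. Control day 7 stood apart from them, and L-fuc day 7 was second. Sox10 is among the 68 genes and is 0 in immune barcodes by the gate. Summed over the 68 genes, immune barcodes held 5352 CPM in control and 886 in L-fuc at day 7, while tumor barcodes held 23581 and 24561. Most barcodes had some of this RNA: 99.9% of the control and 88.5% of the L-fuc immune barcodes had at least 1 UMI of the 68 genes. The 10% of immune barcodes with the most of these UMIs held 51.9% of them in control and 65.5% in L-fuc. The median barcode held 0.497% of its UMIs in them in control and 0.0458% in L-fuc. It was 0.685% in the shallower and 0.244% in the deeper control barcodes, and 0.0930% and 0.0231% in the L-fuc ones. Free RNA and tumor cells captured with an immune cell cannot be told apart here.

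**Figure D2:**
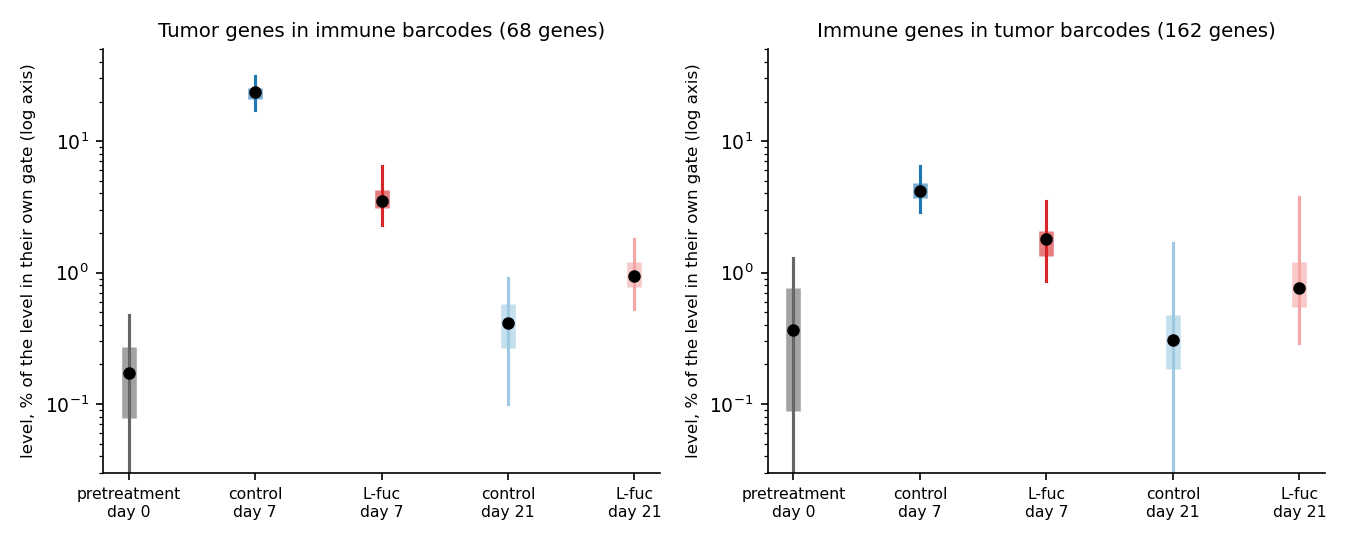
Level of 68 tumor genes in immune barcodes (left) and of 162 immune genes in tumor barcodes (right), as a percent of their level in their own gate of the same library, on a log axis. Dots are medians over the genes, thick bars the quartiles and thin lines the range from the 5th to the 95th percentile. Control day 7 is highest in both panels, at 23.5% and 4.20%, and L-fuc day 7 is second, at 3.53% and 1.79%. The day 0 values are low by the choice of the genes.

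Immune genes counted in tumor barcodes were also lower in L-fuc, from a smaller share. For 162 immune genes, chosen at day 0 with at least 100 CPM in immune and at most 2% of that in tumor barcodes, the level in tumor barcodes was a median of 4.20% of the immune level in control day 7 and 1.79% in L-fuc day 7, with 0.367% at day 0. The day 0 value is low by that choice. Of the 48 genes lower in tumor barcodes alone, 39 were immune-enriched at day 0, and of all 799 immune-enriched genes measured in the tumor gate 63 were lower, with a median of -0.44. The lower genes included many of macrophages. Lyz2, lysozyme of myeloid cells, had 68.8 CPM in control and 19.5 in L-fuc tumor barcodes. C1qa, a chain of complement C1q, had 107 and 49.4 CPM. Ccl8, a chemokine, had 36.9 and 12.2 CPM, and Ccl7, a chemokine for monocytes, 5.53 and 0.791. Of the macrophage list 6 of 11 members were lower in tumor barcodes, where 0.742% of all genes were, with a median of -1.01 against -0.17 in immune barcodes, and of the inflammatory cytokine list 6 of 15, with a median of -0.76. Lyz2, C1qa, Ccl8 and Ccl7 are themselves among the 162 genes. Summed over the set, tumor barcodes held 1971 CPM in control and 1035 in L-fuc, while Ccl7 and Lyz2 were 6.99-fold and 3.54-fold lower there. In immune barcodes Lyz2 had 1293 and 1040 CPM, and Ccl7 160 and 129. Thinned to 2000 UMIs, Lyz2 was just below 2-fold, at a log2 ratio of -0.99. Col1a1, a collagen chain of fibroblasts, had 33.0 CPM in control and 4.82 in L-fuc tumor barcodes. An alternative chosen after seeing the data subtracted the other gate's profile. Genes lower in tumor barcodes alone then numbered 19 and not 48, and genes lower in immune barcodes alone 385 and not 915. The part subtracted was the median share of the 68 tumor or 162 immune genes in the same library. Values below 0 were set to 0. The step thus brings genes of these sets near 0 in the other gate, so the counts cannot show where the RNA came from.

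The 4 hemoglobin genes were past 2-fold in both gates. In immune barcodes Hbb-bs, a beta globin, had 1227 CPM (1207 to 1247) with control water and 2942 (2920 to 2965) with L-fuc, which is 2.40-fold (2.36 to 2.44). In tumor barcodes it had 457 and 1199 CPM, 2.62-fold (2.59 to 2.66). Hba-a1, an alpha globin, had 315 and 733 CPM in immune and 117 and 293 in tumor barcodes. The log2 ratios of Hbb-bs, Hba-a1, Hbb-bt and Hba-a2 ran from 1.06 to 1.26 in immune and from 1.25 to 1.55 in tumor barcodes. With the looser filter of 200 genes per barcode and a complexity of at least 0.8, Hbb-bs was below 2-fold in immune barcodes, at a log2 ratio of 0.84, and at 1.10 in tumor barcodes, and the red cell medians were 0.71 and 0.97. Reads of Hba-a1 and Hba-a2, and of Hbb-bs and Hbb-bt, can be shared between near-identical copies. Alas2, the enzyme of heme synthesis in red cell precursors, had 29.1 and 49.5 CPM in immune barcodes and 11.7 and 18.4 in tumor barcodes, below 2-fold in both. Barcodes with a hemoglobin UMI were 54.97% and 96.3% of the immune and 53.6% and 95.2% of the tumor barcodes (control and L-fuc), in libraries of unequal depth. Thinned to 2000 UMIs, Hbb-bs was found in 26.3% and 63.8% of the immune and in 18.6% and 39.2% of the tumor barcodes, in the same order. The 10% of barcodes with the most hemoglobin UMIs still held 85.7% to 91.8% of them in each gate. In immune barcodes Hbb-bs was at 0.131 CPM at day 0, and at 321 in control and 1.73 in L-fuc at day 21.

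Most of the other genes higher in both gates are known from mast cells, basophils or myeloid cells. Outside immunoglobulins there were 12, the 4 globin genes, Ifitm1, Ccl6, Hdc, Il4, Mcpt2, Mcpt8, Ly6a and Prss34. Ifitm1, an interferon-induced membrane protein, had 32.7 CPM in control and 176 in L-fuc immune barcodes, 5.38-fold, and 1.48 and 11.1 in tumor barcodes. Hdc, which makes histamine, had 6.13 and 69.5 CPM in immune and 0.608 and 3.82 in tumor barcodes. Ccl6, a chemokine, had 41.3 and 152 CPM in immune barcodes, but a log2 ratio of only 0.38 among those with at least 5 C1q UMIs. In the tumor gate single barcodes carried part of these values. In L-fuc, 1 barcode held 50.2% of the Ccl6 UMIs there, and 1 barcode 55.3% of the Mcpt2 UMIs.

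Outside immunoglobulins 10 genes were lower in both gates. Fcrls, a receptor of tissue macrophages, had 106 CPM in control and 33.0 in L-fuc immune barcodes, and 4.59 and 0.652 in tumor barcodes. With the immune gate's profile subtracted, its log2 ratio in tumor barcodes was -0.12. Fcrls is itself among the 162 genes that set the part subtracted, so this value is no separate check. Arg1, arginase of macrophages, had 201 and 95.3 CPM in immune barcodes and 8.08 and 2.86 in tumor barcodes. Pf4, a chemokine of platelets and some macrophages, had 35.0 and 14.8 CPM in immune barcodes. The replication histone Hist1h3f had 46.4 and 16.6 CPM in immune and 29.8 and 12.3 in tumor barcodes. The other members were Hist1h2bm, Hist1h3c, Mmp12, Sod3, Cldn19 and Mfap5.

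Outside immunoglobulins, the 4 highest ratios of the immune gate were those of the mast cell and basophil genes Mcpt8, Mcpt2, Il4 and Mcpt1. Mcpt8, a basophil protease, had 13 UMIs or 1.11 CPM in control and 1556 UMIs or 69.3 CPM in L-fuc immune barcodes, which is 62.6-fold (36.5 to 118). In the L-fuc library 46 barcodes with at least 5 UMIs held 97.5% of its UMIs, and 0 control barcodes had that many, so few cells carried the difference. Il4, the cytokine that basophils and T helper cells make, had 2 UMIs in control and 458 in L-fuc, a ratio of 120 (33.0 to 992). Mcpt1, a mast cell protease, had 57.5 and 983 CPM. Mcpt2, a close relative of Mcpt1, had 29.3 and 682 CPM. Reads may be shared between them. Tpsab1, a tryptase, had 15.2 and 203 CPM, and Cma1, a chymase, 7.92 and 111. Of the mast cell list 8 of 9 members were higher, where 2.12% of all genes were. The list median was 2.70 against -0.15 over all genes. The receptor Kit was at 6.21 and 11.4 CPM, below 2-fold. In all, 89 of 3287 L-fuc and 8 of 2900 control immune barcodes had at least 5 UMIs of the list without Kit and Hdc. Thinned to 2000 UMIs, 12.4% of the L-fuc and 5.44% of the control immune barcodes had a UMI of it, against 17.9% and 8.55% unthinned. In tumor barcodes, which should lack these genes, it was 4.53% and 3.76% thinned. At day 21 only 2 members were measured, with a median of -1.15. Outside the list, Mcpt1 had 182 CPM in control and 0 in L-fuc immune barcodes of day 21, and Mcpt2 59.2 and 0. These immune gates held only 705 control and 443 L-fuc barcodes. Mcpt8 had 10.6 and 1.73 CPM there, and Il4 0 and 0.722. In L-fuc day 7, 1 immune barcode held 18.5% of the Mcpt1 UMIs. For Mcpt2 and Tpsab1 it was 18.2% and 21.9%.

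Effector genes of T cells and NK cells were higher in the immune gate as well. Of that list 8 of the 10 members were past 2-fold, where 2.12% of all genes were higher. The list median was 1.501 against -0.15 over all genes. Gzma, granzyme A, had 289 CPM (279 to 299) with control water and 1594 (1577 to 1610) with L-fuc, 5.52-fold. Gzmb, granzyme B, had 43.4 and 258 CPM. Ifng, interferon-gamma itself, had 37.5 and 186 CPM, 4.94-fold (4.48 to 5.46). Gzmc had 5.79 and 64.0 CPM, with 59.2% of its L-fuc UMIs in 1 barcode. Prf1, perforin, had 57.7 and 164 CPM. The chemokines of these cells followed. Ccl5 had 1429 and 3274 CPM, and Xcl1, which attracts cDC1, 95.8 and 276. Gzmk and Fasl had log2 ratios of 0.24 and 0.69. In tumor barcodes, where 0.598% of all genes were higher, 0 of 9 measured members were, and Ifng had 2.25 and 1.77 CPM there.

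The difference in these genes was also seen with barcodes at the same depth, to which the gates were applied anew. Thinned to 2000 UMIs, Ifng was found in 5.87% of the control and 14.9% of the L-fuc immune barcodes (4.78% to 7.13% and 13.4% to 16.5%), and unthinned in 8.93% and 21.6%. In tumor barcodes the thinned shares were 0.428% and 0.727%. Gzmb was found in 6.00% and 19.7% of the thinned immune barcodes, and in 0.892% and 1.96% of the tumor ones. The immune shares were above those in tumor barcodes. Among immune barcodes with a T cell receptor contig, Ifng had 84.6 CPM in control and 387 in L-fuc, and Gzmb 59.0 and 184. Among those with neither a contig nor a C1q UMI, Gzma had 573 and 5181 CPM, and Gzmb 59.9 and 647. Barcodes with at least 5 C1q UMIs and no contig showed ratios of similar size, with 166 and 824 CPM for Gzma, 17.9 and 142 for Gzmb and 11.4 and 65.8 for Ifng. Gzmb was thus past 2-fold in all 3 subsets, and the part of free RNA in this was not tested.

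T cell and NK cell markers were higher in part. Over all genes in the immune gate 2.12% were higher. Of the T cell list 4 of 12 members were higher, with a median of 0.94, and of the NK cell list 5 of 8, with a median of 1.28. Cd4, the coreceptor of helper T cells, had 30.8 CPM in control and 72.6 in L-fuc, and Ctla4, an inhibitory receptor, 40.9 and 104. Cd8a, the coreceptor of cytotoxic T cells, had 67.4 and 73.3 CPM. Within the barcodes with a receptor contig Cd8a had 160 and 151 CPM, Cd4 64.6 and 157, and Ctla4 90.9 and 224. Ncr1, an activating receptor of NK cells, had 69.3 and 177 CPM. More cells of a type and more RNA per cell cannot be told apart in such sums. Barcodes with UMIs of both Ptprc and Sox10 are not in them, among them 214 control and 102 L-fuc barcodes with a receptor contig. The effect of this unequal loss on the ratios was not tested.

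Of the alternative activation list, which holds macrophage genes, 4 of 8 members were lower in immune barcodes, against 8.32% of all genes there, with a median of -0.995. Spp1, osteopontin, had 757 and 353 CPM, with 17.2% of the L-fuc UMIs in 1 barcode, and Gpnmb, a lysosomal glycoprotein, 12.4 and 3.07. Among barcodes with at least 5 C1q UMIs and no receptor contig, which carry macrophage RNA, Arg1 and Spp1 were below 2-fold, at log2 ratios of -0.87 and -0.89. Their ratios were larger in size in barcodes with a contig, at -1.85 and -1.59, and in those with neither a contig nor a C1q UMI, at -2.51 and -2.39. Arg1 was also below 2-fold over all immune barcodes at equal depth (-0.77), with TMM scaling (-0.91), with each barcode weighted the same (-0.68) and without the deepest barcodes (-0.71). Cxcl9, the interferon-induced chemokine for T cells, had 278 CPM in control and 625 in L-fuc immune barcodes. Its log2 ratio of 1.16 was 0.70 at equal depth, and its direction turned with the barcodes taken. Among barcodes with at least 5 C1q UMIs and no receptor contig it had 462 and 1233 CPM, and with no C1q UMI and no contig 83.1 and 40.2. The macrophage list as a whole had a median of -0.17, with 1 of 11 members lower, and the summed level was 11972 CPM in control and 10038 in L-fuc.

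**Figure D3:**
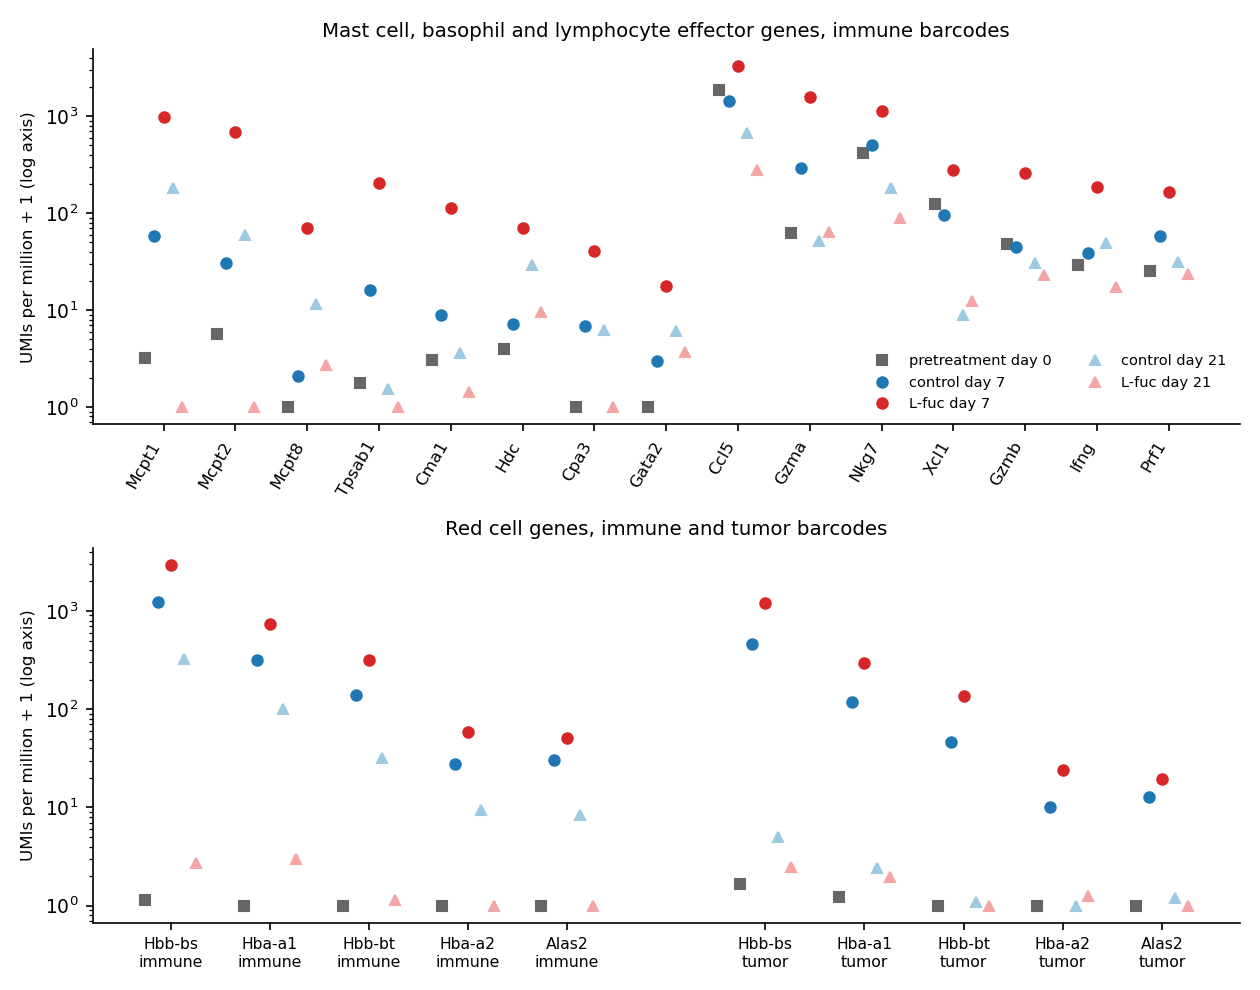
CPM + 1 on a log axis of mast cell, basophil and effector genes in immune barcodes (top) and of red cell genes in both gates (bottom), with 1 point for each of the 5 libraries; there are no replicates, so no error bars are drawn. In the top panel L-fuc day 7 lies above control day 7 for each of the 15 genes, and in the bottom panel for Hbb-bs, Hba-a1, Hbb-bt, Hba-a2 and Alas2 in both gates.

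In tumor barcodes, where 0.598% of all genes were higher, part of the interferon-gamma-induced and antigen presentation genes passed 2-fold. Of the interferon-gamma-induced list 6 of 12 members were higher in tumor barcodes, with a median of 1.01, and 1 of 12 in immune barcodes, with a median of 0.06. Of the class II list 6 of 11 measured members were higher and 1, Ctss, lower in tumor barcodes, with a median of 1.06, while 0 of 12 passed 2-fold in immune barcodes, with a median of 0.43. Of the class I list 3 of 16 were higher, with a median of 0.76. The median over all genes in tumor barcodes was -0.04. Of all genes in immune barcodes, 2.12% were higher and 8.32% lower.

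Gbp2, a guanylate-binding protein that acts on intracellular pathogens, had 74.3 CPM in control and 158 in L-fuc tumor barcodes. Gbp4 had 20.7 and 54.1 CPM in tumor barcodes, 2.61-fold (2.45 to 2.79), and 47.6 and 54.8 in immune barcodes. Reads of the Gbp family can be shared between its members. Tgtp2, a GTPase that interferon-gamma induces, had 32.6 and 76.1 CPM in tumor and 22.5 and 20.3 in immune barcodes. Igtp, another of these GTPases, had 46.5 and 104 CPM in tumor barcodes. C4b, complement component 4, had 29.0 and 70.2 CPM in tumor barcodes and 19.6 and 16.6 in immune barcodes. The largest ratio of these was that of Gbp8, with 4.57 and 21.7 CPM, 4.75-fold (4.18 to 5.40). Ciita, the transactivator of class II, had 23.6 and 49.1 CPM, a log2 ratio of 1.03 that was 0.96 at equal depth and 0.87 with each barcode weighted the same.

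The class II chains themselves were higher by similar factors. H2-Aa had 697 CPM in control and 1530 in L-fuc tumor barcodes, H2-Ab1 395 and 872, and H2-Eb1 553 and 1258. Cd74, the invariant chain, had 1846 and 3472 CPM, a log2 ratio of 0.91. H2-DMb2, which helps to load peptides, had 89.3 and 253 CPM. Psmb8, an immunoproteasome subunit, had 356 and 772 CPM, and B2m, the light chain of class I, 1568 and 2382 at a log2 ratio of 0.60. Ctss, a lysosomal protease of myeloid cells, had 90.9 and 38.5 CPM. The macrophage list was lower in the same tumor barcodes, at a summed 749 CPM in control and 436 in L-fuc. With the immune gate's profile subtracted, the macrophage median there was 0 instead of -1.01. Most members of that list are among the 162 genes that set the part subtracted, so this median is largely fixed by the step. Thinned to 2000 UMIs, 74.5% of the control (73.3% to 75.6%) and 90.7% of the L-fuc tumor barcodes (89.3% to 92.0%) had a UMI of H2-Aa, H2-Ab1 or H2-Eb1. For Gbp2, Gbp3, Gbp4 or Gbp5 it was 16.3% and 30.1%, against 35.5% and 63.1% unthinned.

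Control day 7 was the lowest of the 5 libraries for several of these genes. H2-Eb1 in tumor barcodes had 702 CPM at day 0, and 1093 in control and 1053 in L-fuc at day 21, against 553 and 1258 at day 7. Tgtp2 had 96.9 CPM at day 0 and 86.3 and 100 at day 21, against 32.6 and 76.1. The L-fuc value of day 7 therefore lay near the values of other libraries in Tgtp2 and above them in H2-Eb1. Ciita is an exception, with 19.4 CPM at day 0, below control day 7. With the immune gate's profile subtracted, the medians of both lists at day 7 were 1.07 and 1.11. That step takes 4.20% of the immune level from control and 1.79% from L-fuc. It can thus raise the ratio of genes that immune cells also express, and is no check of these medians. The day 21 libraries, which are other samples, gave list medians of 0.12 for the interferon-gamma-induced and -0.02 for the class II genes in tumor barcodes.

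**Figure D4:**
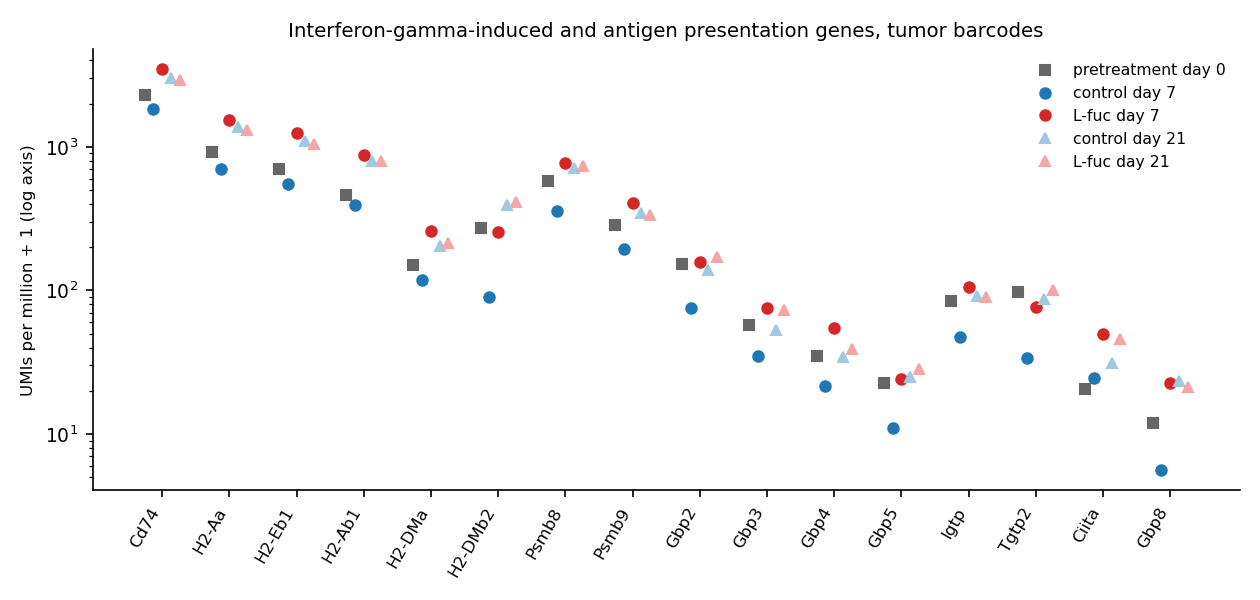
CPM + 1 on a log axis of 16 interferon-gamma-induced and antigen presentation genes in tumor barcodes, with 1 point for each of the 5 libraries and no replicates. L-fuc day 7 lies above control day 7 for each of the 16 genes; for H2-Eb1 it is at 1258 against 553 CPM, and for Gbp8 at 21.7 against 4.57.

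The promoters of the genes higher in tumor barcodes alone are shown because these genes passed 2-fold there and were under 0.5 in size over all immune barcodes. Among immune barcodes with at least 5 C1q UMIs and no receptor contig, H2-Aa and Gbp2 of this set had log2 ratios of 0.66, and Iigp1 0.08. Of the 32 genes, 20 have a window in the RefSeq annotation (GRCm38.p6) of 250 bases before to 50 after the gene start. The letters GAAA, any 2 bases and GAAA again, as in interferon-stimulated response elements, stood on either strand in 8 of the 20 (40%), and TTCNNNGAA, as in sites of STAT factors, in 7 (35%). Either was in 11 (55%). Among all 32851 windows of 300 bases the shares were 3.44%, 8.30% and 11.3%. The 4 genes printed are the first by difference between the gates that have a window and at least 200 UMIs in each gate, and capitals mark the matches. Tgtp2 lies at chr11:49064163-49064462 on the minus strand, Gbp5 at chr3:142496684-142496983, Gbp3 at chr3:142559794-142560093 and Gbp2b at chr3:142594597-142594896, all on the plus strand. In Gbp3 a pair of matches overlaps. A match is only a match of letters.
Tgtp2: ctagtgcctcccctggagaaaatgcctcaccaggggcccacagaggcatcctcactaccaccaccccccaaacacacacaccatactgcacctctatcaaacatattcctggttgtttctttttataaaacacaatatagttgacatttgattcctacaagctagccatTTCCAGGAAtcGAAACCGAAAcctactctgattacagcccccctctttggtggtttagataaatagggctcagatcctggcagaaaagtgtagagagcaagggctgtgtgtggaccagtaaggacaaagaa
Gbp5: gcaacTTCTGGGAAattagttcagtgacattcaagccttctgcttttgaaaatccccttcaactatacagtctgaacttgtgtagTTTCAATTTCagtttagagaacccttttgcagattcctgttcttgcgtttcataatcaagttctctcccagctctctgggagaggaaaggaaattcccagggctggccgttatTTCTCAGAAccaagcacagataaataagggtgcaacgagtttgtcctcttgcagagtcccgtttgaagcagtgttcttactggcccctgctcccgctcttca
Gbp3: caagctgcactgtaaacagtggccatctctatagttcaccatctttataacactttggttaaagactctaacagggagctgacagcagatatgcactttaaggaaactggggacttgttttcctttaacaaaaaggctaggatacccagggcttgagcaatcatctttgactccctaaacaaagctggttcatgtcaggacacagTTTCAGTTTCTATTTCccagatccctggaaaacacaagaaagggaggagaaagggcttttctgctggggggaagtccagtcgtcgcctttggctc
Gbp2b: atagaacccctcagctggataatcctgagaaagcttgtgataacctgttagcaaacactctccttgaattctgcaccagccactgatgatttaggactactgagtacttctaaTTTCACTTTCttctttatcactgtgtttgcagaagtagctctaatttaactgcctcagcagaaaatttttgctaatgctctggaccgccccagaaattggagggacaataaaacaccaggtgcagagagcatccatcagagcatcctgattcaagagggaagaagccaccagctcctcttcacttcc

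Antibody genes gave the extreme ratios of both gates, and single barcodes carried many of them. Igkv9-120 had 2 UMIs in control and 9444 in L-fuc immune barcodes, with 99.8% of the latter in 1 barcode. Igkv14-126 had 10288 UMIs in control immune barcodes, 52.9% of them in 1 barcode, and 0 in L-fuc. In tumor barcodes Igkv6-32 had 4557 UMIs in control, 99.9% in 1 barcode, and 0 in L-fuc. Variable segments of this family resemble each other, so reads can be shared. Krt5 and Krt14, keratins of the basal epidermis, had 0 UMIs in control and 209 and 201 in L-fuc tumor barcodes, with 100% and 99.5% of these in 1 barcode. Values held mostly by 1 barcode describe that barcode. Others were not held by 1 barcode. Igkv8-19 had 291 UMIs in control immune and 804 in control tumor barcodes, with 2.41% and 0.871% in 1 barcode. It had 0 in L-fuc in both gates.

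Of the fucose pathway list, which holds the enzymes that activate, carry, transfer and remove fucose, 0 of 15 measured members in immune and 0 of 13 in tumor barcodes passed 2-fold, with medians of -0.15 and 0.02. Over all genes 2.12% were higher and 8.32% lower in immune barcodes, and 0.598% and 0.742% in tumor barcodes, so few members of a short list would pass. Fut8, which adds the core fucose of N-glycans, had 22.6 and 18.7 CPM in immune and 41.0 and 34.6 in tumor barcodes. Fut7, which makes selectin ligands, had the largest log2 ratio, 0.99, at 2.38 and 5.70 CPM in immune barcodes. Hypoxia and glycolysis genes had a median of -0.49 in immune barcodes, with 4 of 20 lower, and of 0.33 in tumor barcodes. Car9, a carbonic anhydrase induced by hypoxia, had 25.8 and 8.77 CPM in immune barcodes. Replication histones had medians of -0.68 in immune and -0.61 in tumor barcodes. Ribosomal protein genes had 0.22 and 0.05, and mitochondrially encoded genes -0.44 and -0.13.

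**Figure D5:**
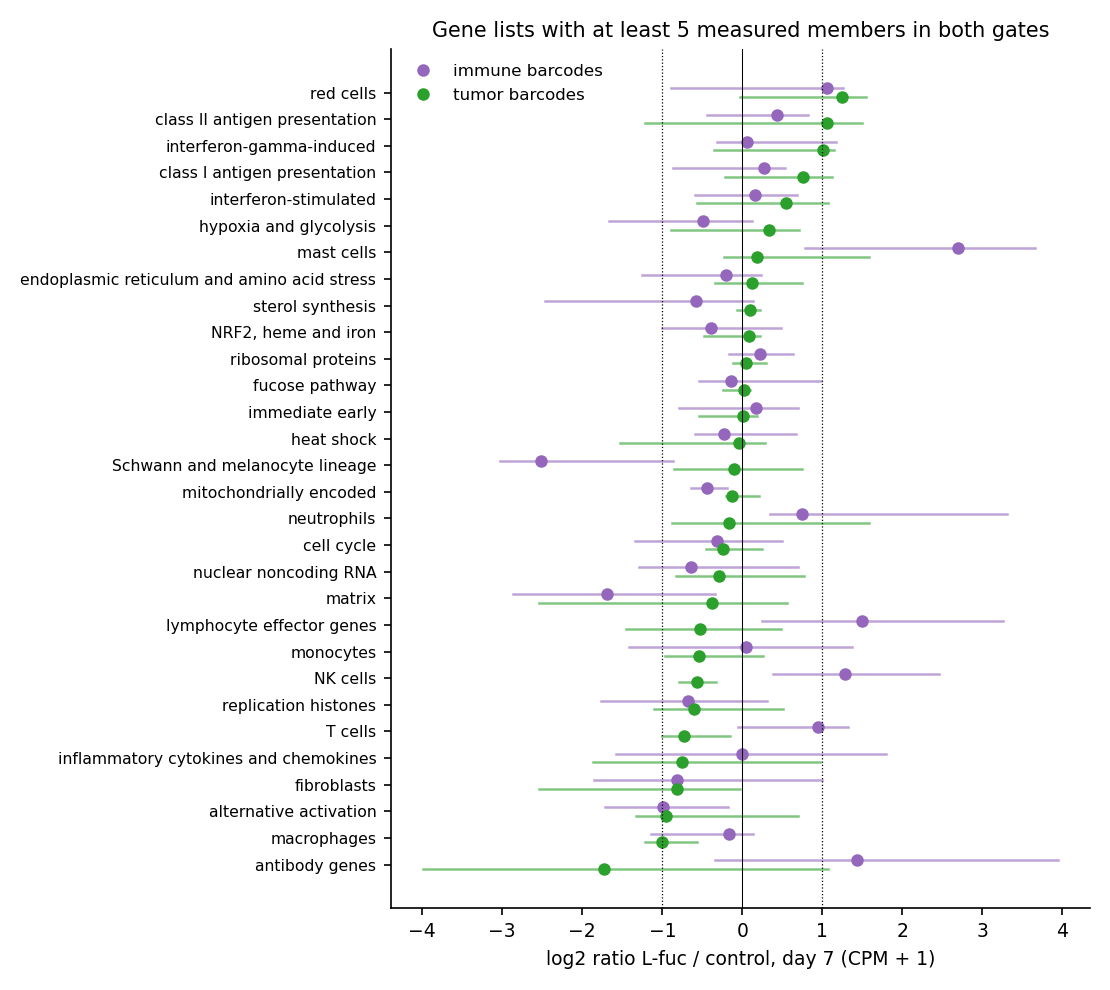
Median of the log2 ratios (L-fuc over control, day 7) for the gene lists with at least 5 measured members in both gates, as dots, with lines from the lowest to the highest member; the medians over all genes are -0.15 in immune and -0.04 in tumor barcodes. The red cell medians are above 1 in both gates, at 1.06 and 1.25, while the mast cell median is 2.70 in immune and 0.18 in tumor barcodes and the Schwann and melanocyte median -2.51 and -0.11.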

How the data were processed

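Cells of SW1 tumors were processed with the 10x system. The authors aligned reads to mm10 with Cell Ranger (3.0 in the labels, 7.1.0 in the file header) and used Seurat 4.0. The deposited values are raw UMI counts for every gene in every barcode, together with T cell receptor contigs per barcode. The day 7 libraries held 119047810 (control) and 88986101 (L-fuc) UMIs.

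Here, barcodes were filtered and gated as described, and no doublet caller was run. Summed counts gave CPM and log2 ratios with 1 CPM added, over genes with at least 50 UMIs. With 1 library per side no test was made. Scaling with edgeR 4.0.16 (TMM, R 4.3.3) shifted the ratios by 0.17 (immune) and 0.04 (tumor). Other steps used Python 3.11.15, numpy 2.4.6, scipy 1.17.1 and pandas 2.3.3, and the ratios were tested on simulated data. The members and the 36 gene lists were chosen with earlier results of these data known. Genes were named when, with at least 200 UMIs in a gate, they were among the 8 most different per gate, direction or shared set, or were among the 4 most abundant members of a list or past 2-fold in it. Mcpt1, Mcpt8, Il4, Tpsab1, Lyz2, Alas2, Cd8a, Kit, Fasl, Fut7, Dct, Pmel, Gbp2b, the remaining genes that complete short lists, and the subsets by receptor contig and C1q were chosen after their values were seen. Shares of barcodes with a UMI were also read after thinning each barcode to 2000 UMIs, which left out 3647 control and 1915 L-fuc barcodes. The gates were then applied to the thinned counts, which gave 1618 control and 2100 L-fuc immune barcodes, and 5606 and 1788 tumor barcodes. A barcode with UMIs of both Ptprc and Sox10 could thus enter a gate, and others could leave it.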

Additional observations from a re-analysis of the deposited data

Results flagged for a closer look

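For several gene lists the median had opposite signs at day 7 and day 21, or in immune and tumor barcodes of day 7, at 0.5 or more in size on each side. None of these differences was tested, since each library stands alone. The day 21 libraries are small, with 705 control and 443 L-fuc immune barcodes and 483 and 321 tumor barcodes. Of those immune barcodes only 54 in control and 22 in L-fuc carried a T cell receptor contig. All values are medians of the log2 ratio (L-fuc over control), over the members measured at both days or, between the gates, over those measured in each gate.

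In immune barcodes the T cell list had 0.94 at day 7 and -0.66 at day 21. The effector list had 1.49 and -0.90, and the red cell list 1.13 and -4.02. Replication histones went the other way, with -0.68 and 0.81. In tumor barcodes replication histones had -0.60 and 1.17, macrophage genes -1.05 and 0.98, and antibody genes -2.64 and 4.18. The 162 immune genes stood in tumor barcodes at a median of 4.20% (control) and 1.79% (L-fuc) of their immune level at day 7. At day 21 it was 0.307% and 0.766%. The set includes most of the macrophage list, so its like direction is not a separate observation.

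At day 7, T cell genes had 0.94 in immune and -0.73 in tumor barcodes, NK cell genes 1.28 and -0.56, and effector genes 1.501 and -0.53. Antibody genes had 1.43 in immune and -1.73 in tumor barcodes. The part of this immune RNA in the values of tumor barcodes was not tested.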

How the results depend on the processing

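No paired analysis was possible because the labels give no number that ties a mouse of one library to the other, and no replicate could be left out. Of 168 recomputed gene counts 127 stayed within 1.5 times the reported count, which compares the size of a set and not its members. Thinned to 2000 UMIs, where fewer genes reached the UMI minimum, 6 of the 56 genes higher in immune barcodes alone passed again. So did 8 of the 19 higher in both and 17 of the 32 higher in tumor barcodes alone. Of 116 leading list medians 109 stayed within the interval of the reported one. That interval comes from the ranked members, and in a list of 7 it spans all of them, so it is a weak check. For single named genes 281 recomputed ratios stayed within the counting interval, 130 moved further and 1 turned. A minimum of 20 UMIs gave 97 genes higher in immune barcodes alone. A minimum of 200 gave 589 lower in immune barcodes, 10 higher and 10 lower in both, and 18 higher and 530 lower in immune barcodes alone. A pseudocount of 0.1 CPM gave 142 higher and 367 lower in tumor barcodes, 35 lower in both and 188 lower in tumor barcodes alone. A pseudocount of 5 CPM gave 148 higher and 542 lower in immune barcodes, 30 and 22 in tumor barcodes, 7 and 5 in both, 485 lower in immune barcodes alone, 18 higher and 9 lower in tumor barcodes alone, and a mast cell median of 2.05. TMM scaling gave 89 higher in immune barcodes alone. Weighting each barcode the same gave 64 lower in tumor barcodes, 87 higher in immune barcodes alone, 14 lower in tumor barcodes alone and a mast cell median of 2.08. At least 2 UMIs of the gate's own gene gave 33 higher in immune barcodes alone. Thinning to 2000 UMIs gave 8 lower in tumor barcodes alone and medians of 1.85 for mast and 1.76 for red cell genes in immune barcodes. Leaving out the deepest 10% of barcodes gave 28 lower in tumor barcodes alone.

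Among immune barcodes with at least 5 C1q UMIs, 392 genes were lower, 12 lower in both and 329 lower in immune barcodes alone, with medians of 2.10 for mast and 1.33 for red cell genes. The matrix list turned to 0.41 there. Among those with no C1q UMI, 460 genes were higher, 221 of which in immune barcodes alone, the red cell median was 2.09, and Cxcl9 turned to -1.13. Among tumor barcodes with no Mki67 or Top2a UMI, 180 genes were lower, and 99 in tumor barcodes alone. After seeing the data, immunoglobulin genes were left out, which gave 12 higher and 10 lower in both. Subtracting the other gate's profile, also added then, gave 484 lower in immune barcodes, 10 lower in both, 137 higher and 385 lower in immune barcodes alone, and 62 higher and 19 lower in tumor barcodes alone, and put the macrophage median of tumor barcodes at 0. That macrophage median is largely fixed by the step, since most genes of the list help to set the part subtracted. The counts of genes thus depend on the settings, and the cause was not tested. The interferon-gamma-induced median in tumor barcodes ran from 0.87 to 1.07 and the class II median from 0.98 to 1.11. The upper ends, 1.07 and 1.11, came with the subtraction, which takes more from control. The effector median in immune barcodes ran from 1.19 to 1.89.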
